A study of Caenorhabditis elegans with 52 samples.

Results

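A set of 189 piRNAs of Caenorhabditis elegans averaged lower in henn-1 mutants than in control animals, although the summed piRNA level was far higher in the henn-1 libraries. Members were the piRNAs whose mean over 4 control libraries was at least 5 RPM, a read count scaled to the depth of the library, and whose mean over 2 henn-1 libraries was at most 0.8 of it. Of the 14680 piRNAs measured, 2680 reached 5 RPM in the controls. The 189 members were 7.05% of these, and the other 2491 are called the rest below. Members were chosen by the henn-1 and control values, so the difference between those libraries is a description and was not tested.

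The study sequenced small RNAs of whole day 1 adults to ask how piRNAs fare without DISL-2, a homolog of the exonuclease DIS3L2, and 42 libraries in 21 groups of 2 were used. The mutant groups were henn-1(tm4477), henn-1(tm4477); disl-2(how18), disl-2(tm5337), disl-2(how27), pup-1(how20); disl-2(how27), pup-1(how50); disl-2(tm5337), pup-1(tm1021), parn-1(tm869); disl-2(tm5337) and parn-1(tm869). The controls were the isogenic control of disl-2 and a control paired with the pup-1 mutants, whose library names give N2, the standard laboratory strain, neither labelled with any of these mutations. A time course followed gfp::aid::tofu-5(how48) animals, with or without disl-2(how27), through 0, 2, 4, 6 and 12 h of 4 mM auxin, with the TIR1 that auxin depletion needs driven by the germline sun-1 promoter. The allele how18 occurs in no single-mutant library, and each pup-1 group carries another pup-1 allele, so genotype and allele cannot be told apart there. The mRNAs of the mutated genes were not measured in these libraries, which therefore hold no check of the mutations. In whole animals, fewer germ cells of a kind and less piRNA per cell cannot be told apart.

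In worms, piRNAs are small germline RNAs bound by the Piwi protein PRG-1, and each is transcribed as its own short unit, mostly from a pair of clusters on chromosome IV. PARN-1 trims the 3′ ends of their precursors, HENN-1 adds a methyl group to the finished 3′ end, poly(U) polymerases such as PUP-1 can add uridines to unprotected ends, and TOFU-5 acts in piRNA transcription. Hermaphrodites make sperm as larvae and oocytes as adults, and piRNAs differ in which germline they come from, which the authors' table gives as the classes Spermatogenic and Oogenic.

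RPM values are relative to all reads of a library, and the piRNA total differed between genotypes. It was 264770 and 294720 RPM in the henn-1 libraries and 239022 and 227760 RPM in henn-1; disl-2(how18), against 75359.7 to 88689.6 RPM in the 4 controls. Rescaling all libraries to the same median therefore widened the set to 1619 piRNAs, all 189 members among them. Depths were 12506051 and 10560462 reads in henn-1 and 8807176 to 52798564 reads over the 42 libraries. The henn-1 replicates stood apart from each other more than any other pair did, with a chi-square of 38.2 per degree of freedom, against 2.11 to 17.2 in the other groups. Replicate 1 was the higher henn-1 library for 150 members, and for 43 members the replicates were over 2-fold apart. Summed, the members had 2773 RPM in replicate 1 and 2211 RPM in replicate 2, and the rest had 221121 and 253175 RPM. With henn-1 replicate 1 alone the rule gave 175 piRNAs, 138 of them members, and with replicate 2 alone it gave 282, 177 of them members. The control groups also differed, over 2-fold for 58 members. These counts of 150, 43 and 58 members were not made for the rest. Against the isogenic control alone the rule gave 191 piRNAs, 123 of them members, and against the pup-1 paired control alone it gave 268, 151 of them members.

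Most members lay above 0.5 of their control mean. The ratio of henn-1 mean to control mean ran from 0.0956 to 0.794 with a median of 0.625, whereas the median over all 2680 piRNAs was 2.64. A ratio under 0.5 was found for 54 members, one under 0.25 for 12, and 51 members lay between 0.7 and 0.8. In both henn-1 libraries 126 members were at or under 0.8 of the control mean, and 78 members had both henn-1 values below all 4 control values. The rule favours both counts, and the latter was not made for the rest. Just inside the ratio limit lay 21ur-3221 at 0.794, 21ur-7162 and 21ur-6087 at 0.788 each, 21ur-5306 at 0.785 and 21ur-6320 at 0.783. Just outside it lay 21ur-8274 at 0.801, 21ur-3715, 21ur-6758 and 21ur-1001 at 0.802 each, and 21ur-3770 at 0.803. At the level limit, 21ur-6726 entered with a control mean of 5.16 RPM, while 21ur-10235 stayed out at 4.98 RPM.

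**Figure D1:**
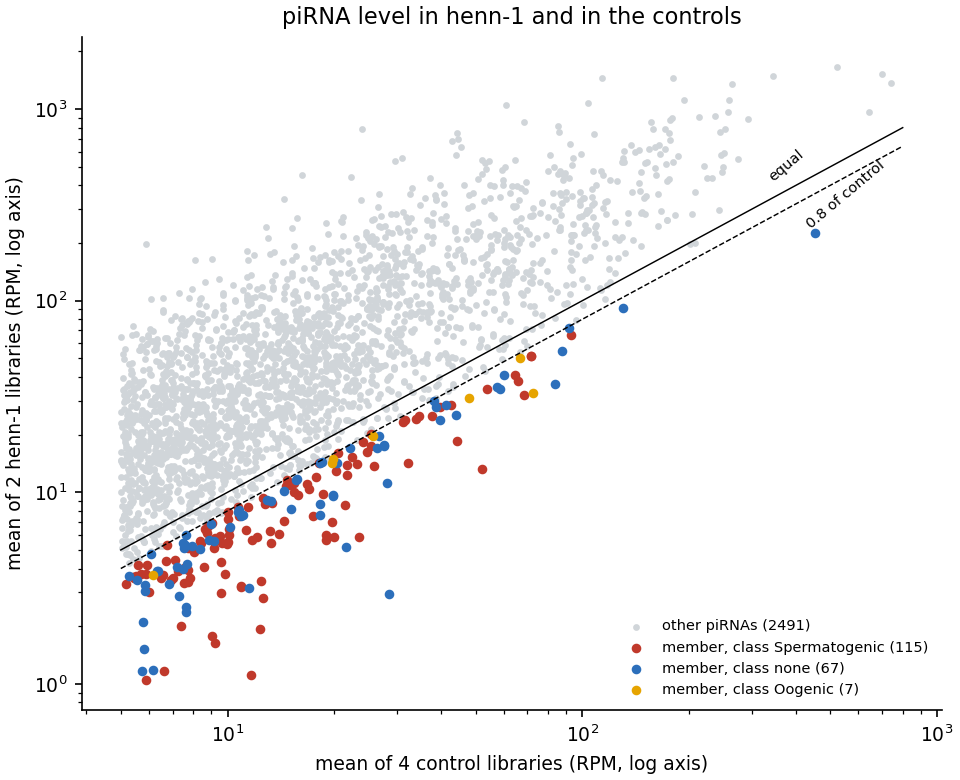
Mean RPM in the 2 henn-1 libraries (y axis, log scale) against the mean RPM in the 4 control libraries (x axis, log scale), 1 point for each of the 2680 piRNAs of at least 5 RPM, with lines for equal levels and for a ratio of 0.8. The 189 members lie on or under the lower line and are coloured by the authors' class (115 Spermatogenic, 7 Oogenic and 67 without a class), and most of the other 2491 piRNAs lie above the line of equal levels.

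The lowest ratio belonged to 21ur-6736, a Spermatogenic piRNA of cluster b. It had 1.28 and 0.947 RPM in henn-1, against 12 and 12.1 RPM in the isogenic control and 13.7 and 8.75 RPM in the pup-1 paired control. 21ur-5108, which has no class and lies in cluster a inside a coding gene, followed at a ratio of 0.103, with 3.68 and 2.18 RPM in henn-1, 22.7 and 24.8 RPM in the isogenic control and 35.2 and 31.4 RPM in the paired control. 21ur-5402, a Spermatogenic piRNA of cluster a, had 1.60 and 2.27 RPM in henn-1, against 14 and 16.7 RPM in the isogenic control and 8.12 and 10.6 RPM in the paired control. In all 3 piRNAs the henn-1 libraries lay below every control library. The other 7 of the 10 lowest ratios lay between 0.177 and 0.223, for 21ur-5038, 21ur-7242, 21ur-11197, 21ur-11824, 21ur-5115, 21ur-12040 and 21ur-176. Of these, 21ur-11824 was low in the isogenic control too, at 1.36 and 2.23 RPM, and high only in the paired control, at 11.3 and 9.73 RPM.

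Members spanned the range of piRNA levels, with control means from 5.16 to 452 RPM and a median of 12.4 RPM, close to the 13.9 RPM of all 2680. The most abundant was 21ur-4572, without a class and from cluster b. It had 242 and 208 RPM in henn-1, against 314 and 241 RPM in the isogenic control and 701 and 553 RPM in the paired control, and its henn-1 values overlapped those of the isogenic control. The second by level, 21ur-481, had 72.8 and 111 RPM in henn-1, against 127 and 103 RPM in the isogenic control and 157 and 134 RPM in the paired control, and here too henn-1 overlapped the isogenic control. 21ur-3607, without a class and from cluster a, had 51.4 and 21.7 RPM in henn-1, against 35.9 and 30.8 RPM in the isogenic control and 139 and 128 RPM in the paired control. Its place in the set rests on the paired control. By contrast, 21ur-742, a Spermatogenic piRNA inside a coding gene of cluster b, had 26.3 and 38.2 RPM in henn-1, 107 and 81.9 RPM in the isogenic control and 53.8 and 31.3 RPM in the paired control, and it was higher in the isogenic one. Over the whole set, 111 members were higher in the paired control and the others in the isogenic control, a count not made for the rest.

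The rule used neither class nor place, and members were unevenly spread over both. Spermatogenic piRNAs made up 115 of the 189 members (60.8%), against 28.0% of the 2680, and Oogenic ones 7 (3.70%), against 24.3%. Seen from the classes, 15.3% of 750 Spermatogenic, 1.07% of 652 Oogenic and 5.24% of 1278 unclassed piRNAs were members. The classes as a whole were ordered the same way, with median ratios of henn-1 to control of 1.505 for Spermatogenic, 3.60 for Oogenic and 3.08 for unclassed piRNAs. The Spermatogenic share of the piRNAs that met the rule was 80.6% against the isogenic control alone and 44.4% against the paired control alone, and 68.3% where each henn-1 library had to be at most 0.8. The Oogenic share, which rests on few piRNAs, was 1.05% (2 piRNAs) against the isogenic control alone, 10.1% (27) against the paired control alone and 7.45% (21) without henn-1 replicate 1. The 7 Oogenic members included 21ur-1688, 21ur-1504, 21ur-9038, 21ur-3740, 21ur-5123 and the pair 21ur-3784 and 21ur-10972, whose loci overlap and share reads.

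By position, cluster a, the one nearer the left end of chromosome IV, held 65 of the 189 members (34.4%) but 12.3% of the 2680 piRNAs. Cluster b, nearer the right end, held 120 (63.5%, against 86.8%), and 4 members lay elsewhere on the chromosome. Members were 19.8% of the 329 piRNAs of cluster a and 5.16% of the 2327 of cluster b. Within the classes, 37.4% of Spermatogenic piRNAs of cluster a and 11.9% of those of cluster b were members, and among unclassed piRNAs the shares were 14.4% and 3.71%. In the order along the chromosome, 60 members (31.7%) had another member as the next of the 2680 piRNAs on either side, against 11.9% of the rest. With overlapping loci counted once the shares were 20.8% and 13.2%. Neighbours were not counted within each cluster, so the higher share of members in cluster a enters these values too. The sequence clones F44E8 and K08B4 stood out by share, with 4 of their 6 and 4 of their 8 piRNAs among the members; they were picked after their counts were seen.

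Shares varied less with location in a coding gene and with level. Members were 7.85% of 943 piRNAs inside an annotated coding gene and 6.62% of the 1737 outside one. By quartile of control level, low to high, 50, 53, 49 and 37 of 670 piRNAs each were members. Reads divided between loci were found in 41 members, which were 5.53% of the 741 piRNAs of that kind. These 41 are uncertain, since their reads can come from any of the loci. They include 13 pairs with overlapping loci and values of log2(RPM + 0.5) less than 0.5 apart in every library, among them 21ur-11919 and 21ur-5892, 21ur-11018 and 21ur-6335, and 21ur-12025 and 21ur-6579. Such pairs are not independent members.

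Across the steady-state genotypes the summed level of the members was 2492 ± 397 RPM in henn-1 and 5357 ± 85.3 RPM in henn-1; disl-2(how18), against 3647 ± 76.6 RPM in the isogenic control and 4823 ± 669 RPM in the paired control (SD, n = 2 each, as in the sums that follow). The rest summed to 237148 ± 22666 RPM in henn-1 and 185812 ± 7740 RPM in the double mutant, against 67500 and 72111 RPM in the control groups. Members thus took 1.05% and 0.750% of the piRNA total in the henn-1 libraries and 2.22% and 2.38% in the double mutant, against 4.51% to 5.97% in the controls. In the single disl-2 mutants the sum was 2899 ± 586 RPM with tm5337 and 5085 ± 386 RPM with how27. Next to pup-1 mutations it was 2753 ± 45.0 RPM with disl-2(how27) and 2579 ± 524 RPM with disl-2(tm5337), against 1782 ± 226 RPM in pup-1 alone. The lowest sums were 618 ± 49.5 RPM in the parn-1; disl-2(tm5337) mutant and 412 ± 52.6 RPM in parn-1. Choosing members by a low ratio of henn-1 to control also favours piRNAs with high control values, which tends to lower each of their levels given relative to the controls.

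**Figure D2:**
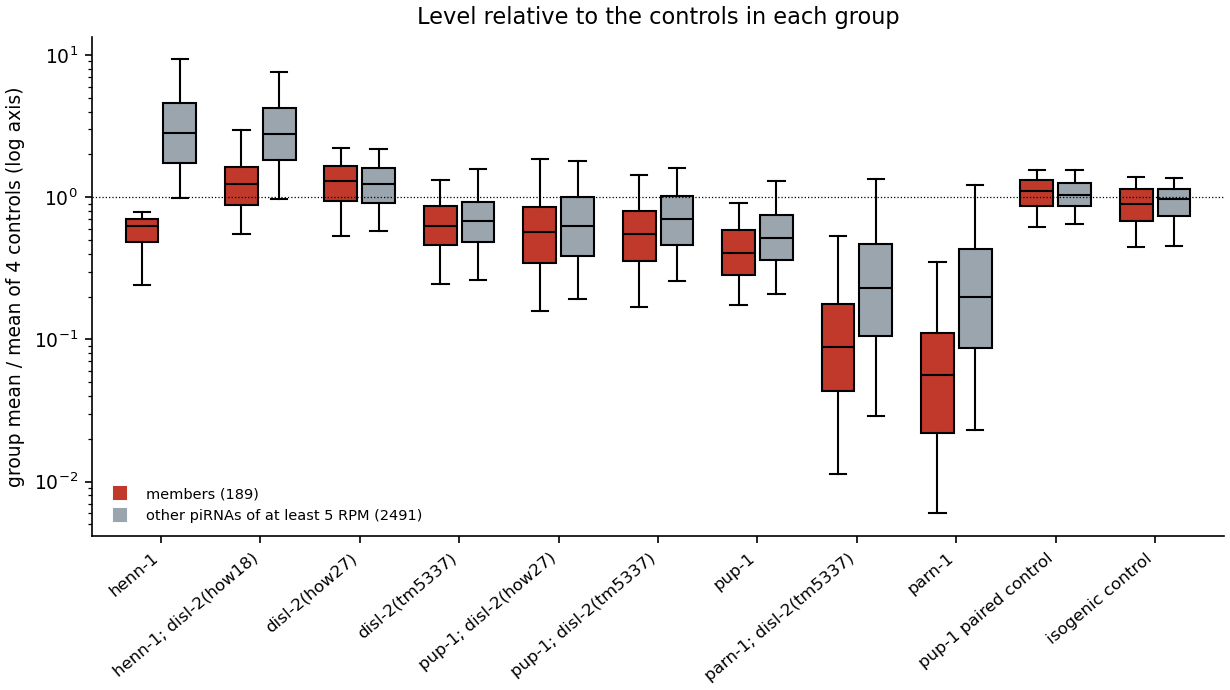
Level of each piRNA in a genotype (group mean) divided by its mean over the 4 control libraries (y axis, log scale), as boxes of the members beside boxes of the rest for each steady-state group, mutants to the left and controls to the right. Boxes span the quartiles with the median as a line and whiskers reach the 5th and 95th percentiles. Members sit under the rest in henn-1 (medians 0.625 and 2.81), henn-1; disl-2(how18) (1.24 and 2.79) and parn-1 (0.0563 and 0.197), while in disl-2(how27) the medians are 1.30 and 1.23. Among Spermatogenic piRNAs, which are not drawn apart, the disl-2(how27) medians are 1.44 for members and 1.71 for the rest.

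The double mutant henn-1; disl-2(how18) was not used by the rule, but henn-1 was, so the step between them is also given without a test. In henn-1; disl-2(how18), 175 of the 189 members averaged above their henn-1 mean, and 163 had both libraries above both henn-1 libraries, while 6 had both below. Of the rest, 1156 of 2491 averaged above their henn-1 mean, and the counts by both libraries were not made there. Choosing members by a low henn-1 mean favours higher values in the double mutant. Relative to the controls, the median member stood at 1.24 in the double mutant and the median of the rest at 2.79. A mean at most 0.8 of the control mean was kept by 35 members, and 64 of the rest reached it in the double mutant.

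Single members differed in how far the double mutant lay from henn-1. 21ur-5108 had 51.1 and 43.8 RPM in henn-1; disl-2(how18), against 3.68 and 2.18 RPM in henn-1. 21ur-5230, a Spermatogenic piRNA inside a coding gene of cluster a, had 92.0 and 150.3 RPM in the double mutant, against 10.6 and 3.41 RPM in henn-1, and in both piRNAs the double mutant lay above all control libraries too. 21ur-6736 stayed low, at 1.27 and 1.74 RPM in the double mutant, against 1.28 and 0.947 RPM in henn-1. Overlap was also seen for 21ur-11919 and 21ur-5892, Spermatogenic piRNAs that share reads. 21ur-11919 had 41.6 and 37.8 RPM in the double mutant, against 35.5 and 67.2 RPM in henn-1.

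**Figure D3:**
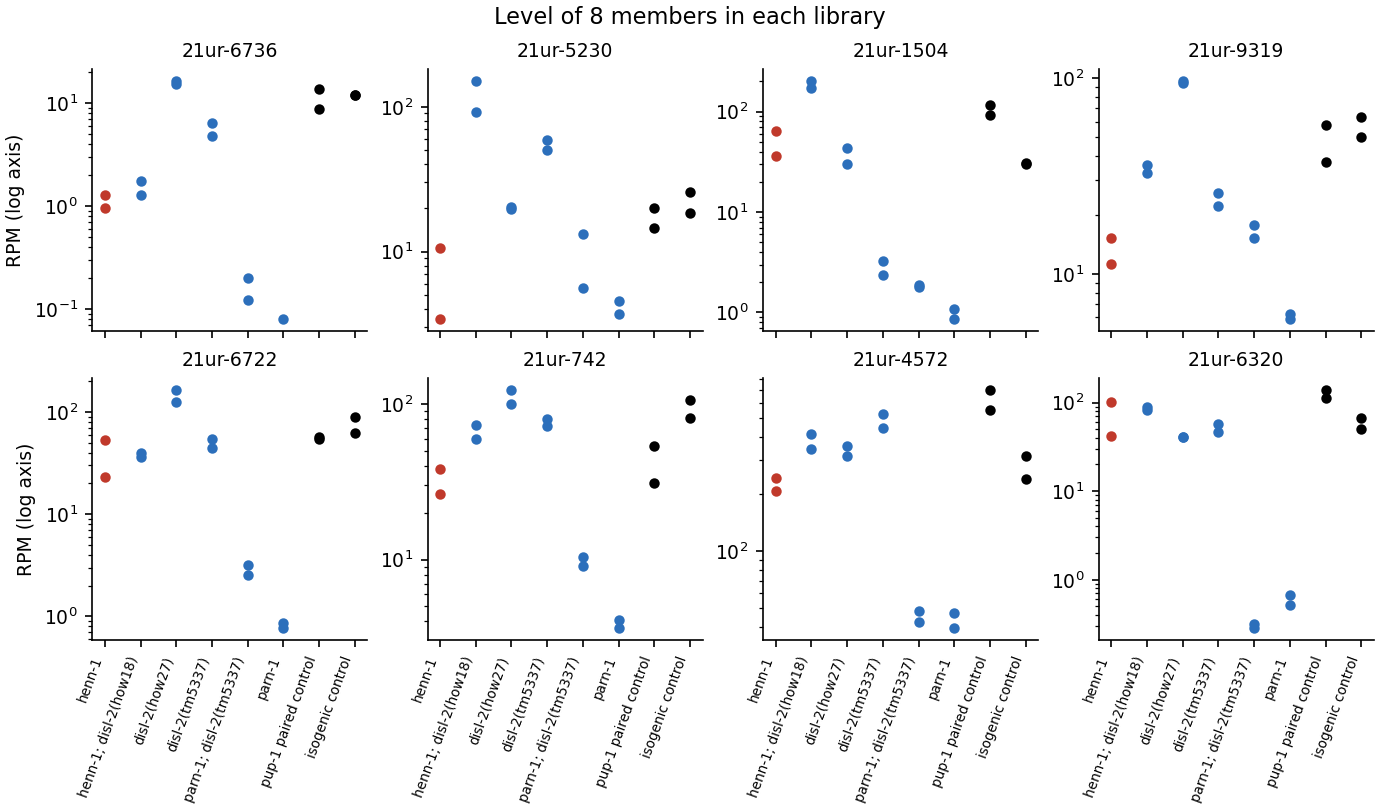
RPM of 8 named members in each library (points, y axis, log scale) of 8 steady-state groups, mutants to the left and controls to the right. 21ur-6736 stays near 1 RPM in henn-1 and henn-1; disl-2(how18), 21ur-5230 and 21ur-1504 are highest in henn-1; disl-2(how18), and the value of 0 RPM of 21ur-6736 in parn-1 replicate 1 is not drawn.

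Tests were made only between libraries that the rule did not use. Each was fitted with limma on log2(RPM + 0.5) over all piRNAs averaging at least 1 RPM in the fitted libraries, and a piRNA rose or fell where its Benjamini-Hochberg adjusted p over all of them was under 0.05. The labels do not call the replicates separate cultures, so these p-values rest on the spread between the samples at hand, possibly a technical one, and limma pools most of it over the piRNAs.

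The first comparison set henn-1; disl-2(how18) against disl-2(how27), which asks how members differ with and without HENN-1 once DISL-2 is missing, with the disl-2 allele differing as well. Of the 189 members, all of which passed the level filter, 52 rose and 62 fell, at a median log2 change of -0.10. Over all 7493 piRNAs tested 75.9% rose and 4.78% fell, and of the rest 1824 of 2491 rose and 194 fell, at a median of 1.22. Rescaling to equal medians, a shift of 1.37 in the median of all piRNAs, left 9 members higher and 164 lower, with a median of -1.58, beside 2509 higher and 2541 lower of all 7493 piRNAs, so the members' balance of rises and falls depends on that scale. Among Spermatogenic members 15 of 115 rose and 54 fell (median -0.51). Spermatogenic piRNAs of the rest had 224 of 635 risen, 156 fallen and a median of 0.15. Unclassed members had 32 of 67 risen and 8 fallen (median 0.53, against 1.44 in the unclassed rest), and 5 of the 7 Oogenic members rose and none fell. Split by the ratio of henn-1 to control, the median was -0.21 in the 54 members under 0.5, -0.10 in the 84 between 0.5 and 0.7 and -0.09 in the 51 above. Fewer members fell without replicate 1 of the double mutant, and the share over all piRNAs in that setting is not given.

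Among members that fell there, 21ur-6736 had 1.27 and 1.74 RPM in henn-1; disl-2(how18), against 16.4 and 15.3 RPM in disl-2(how27), a log2 change of -3.04 ± 0.27 (SE; adjusted p = 3.51e-11). 21ur-6722, a Spermatogenic piRNA of cluster a, had 39.8 and 36.5 RPM in the double mutant, against 163 and 126 RPM in disl-2(how27), a change of -1.90 ± 0.19 (adjusted p = 4.04e-10). 21ur-9319, Spermatogenic, of cluster a and inside a coding gene, had 32.8 and 36.0 RPM, against 96.5 and 94.3 RPM, a change of -1.46 ± 0.20 (adjusted p = 9.21e-08). In all 3 the libraries of the double mutant lay below those of disl-2(how27). 21ur-11919 fell by 1.65 on the log2 scale and 21ur-6489 by 1.78, both piRNAs that share reads.

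The largest rises there included members of each class. The Spermatogenic 21ur-5230 had 92.0 and 150.3 RPM in the double mutant, against 20.3 and 19.7 RPM in disl-2(how27), a log2 change of 2.53 ± 0.21 (adjusted p = 8.46e-12). The Oogenic 21ur-1504 of cluster b had 170.1 and 201 RPM, against 43.5 and 30.4 RPM, a change of 2.33 ± 0.23 (adjusted p = 1.66e-10). The unclassed 21ur-4934, inside a coding gene of cluster b, had 214 and 302 RPM, against 51.3 and 48.7 RPM, a change of 2.34 ± 0.22. The libraries of these 3 did not overlap between the genotypes. 21ur-11381 and 21ur-3144, unclassed piRNAs of cluster a, rose by 2.50 and 2.46. The most abundant member, 21ur-4572, had 413 and 346 RPM in the double mutant, against 356 and 317 RPM in disl-2(how27), a difference of 0.17 that did not pass (adjusted p = 0.265).

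**Figure D4:**
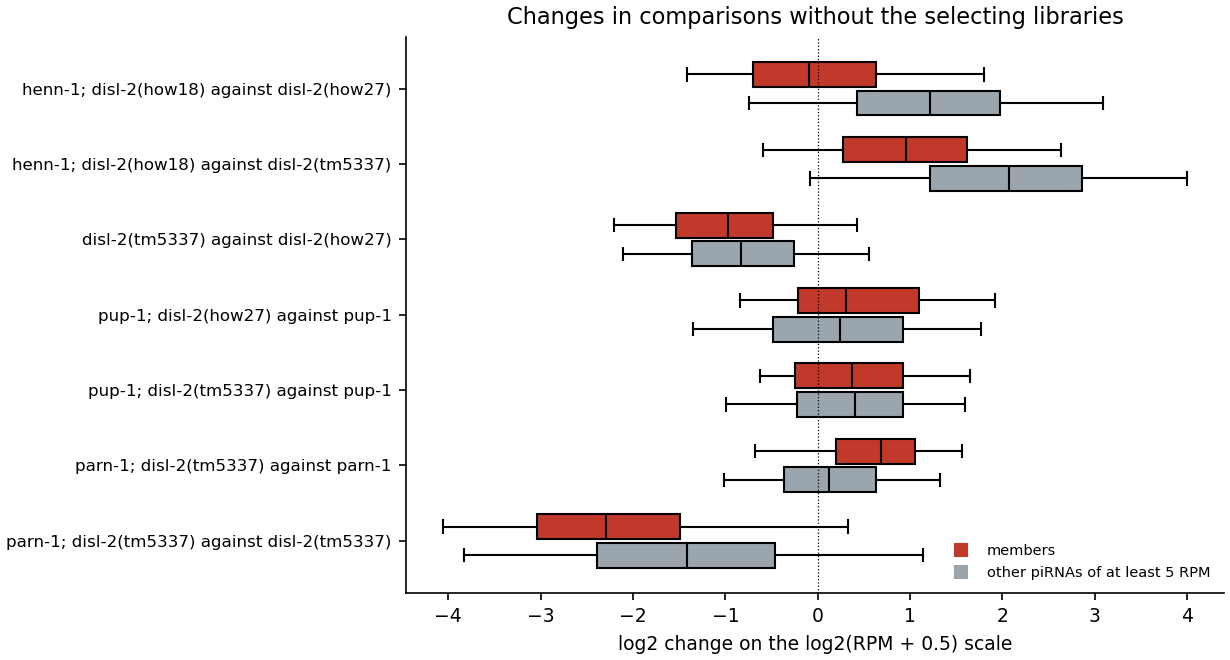
Log2 change of members and of the rest in 7 comparisons that the rule did not use (x axis, mutant named first minus the one named second; boxes span the quartiles with the median, whiskers the 5th and 95th percentiles). Members lie to the left of the rest where henn-1; disl-2(how18) is compared with disl-2(how27) (medians -0.10 and 1.22) and with disl-2(tm5337) (0.96 and 2.07), and where parn-1; disl-2(tm5337) is compared with disl-2(tm5337) (-2.30 and -1.41).

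Against the other single allele, disl-2(tm5337), the same double-mutant libraries gave 127 members risen and 14 fallen, with a median of 0.96. This comparison shares the henn-1; disl-2(how18) libraries with the one before. Over all piRNAs 89.3% rose and 1.69% fell, and the rest had 2204 risen, 64 fallen and a median of 2.07. After rescaling, with a shift of 1.90, 12 members were higher and 147 lower, beside 2552 and 2398 of all 7493 piRNAs. Spermatogenic members had 69 of 115 risen and 12 fallen (median 0.85), against 489 and 42 of the 635 in the rest (median 1.43). Fewer members fell without 1 of the double-mutant libraries, whichever was left out, and more without disl-2(tm5337) replicate 2. Shares over all piRNAs in these settings are not given. The steepest rise among members was that of 21ur-1504, with 170.1 and 201 RPM in the double mutant, against 3.24 and 2.36 RPM in disl-2(tm5337), a change of 5.83 ± 0.23 (adjusted p = 4.66e-19). 21ur-8428, which shares reads, 21ur-674, 21ur-8180 and 21ur-9306 also rose by over 3 on the log2 scale. The deepest fall was that of 21ur-2667, a Spermatogenic piRNA of cluster b, with 5.75 and 6.51 RPM in the double mutant, against 25.0 and 21.2 RPM in disl-2(tm5337), a change of -1.83 ± 0.24 (adjusted p = 3.06e-08). For 21ur-6736 the change was -1.61 ± 0.27 (adjusted p = 3.1e-06), so it was lower in the double mutant than in either single allele.

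The single alleles themselves differed on these members. In disl-2(tm5337) relative to disl-2(how27), 7 members rose and 128 fell, with a median of -0.98. Over all piRNAs 4.84% rose and 43.8% fell, and in the rest 129 rose, 1582 fell and the median was -0.83. Spermatogenic members (1 risen and 86 fallen of 115, median -1.17) stood close to the Spermatogenic rest (10 and 510 of 635, median -1.22). Rescaling, with a shift of -0.49, gave 32 members higher and 87 lower, beside 1771 and 1905 of all 7493 piRNAs. The number of members that rose varied with the library left out and was largest without disl-2(tm5337) replicate 2. Shares over all piRNAs without 1 library are not given. 21ur-1504 was an extreme case, with 3.24 and 2.36 RPM in disl-2(tm5337), against 43.5 and 30.4 RPM in disl-2(how27), a change of -3.50 ± 0.23 (adjusted p = 4.32e-13). 21ur-3476, a Spermatogenic piRNA of cluster a, had 20.9 and 10.4 RPM in disl-2(tm5337), against 98.8 and 104 RPM in disl-2(how27), a change of -2.74 ± 0.23 (adjusted p = 9.01e-11). 21ur-5230 went the other way, with 59.1 and 50.4 RPM in disl-2(tm5337), against 20.3 and 19.7 RPM in disl-2(how27), a change of 1.43 ± 0.21 (adjusted p = 2.13e-06).

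In animals without PUP-1, members with a disl-2 mutation were compared with the pup-1 single mutant. For pup-1; disl-2(how27), 70 of the 186 members that passed the level filter rose and 11 fell, with a median of 0.31. Over all 4674 piRNAs 25.4% rose and 14.4% fell, and of the rest 736 of 2488 rose and 371 fell (median 0.24). For pup-1; disl-2(tm5337), which was set against the same pup-1 libraries, 56 members rose and 5 fell (median 0.37). There 22.5% of all piRNAs rose and 7.83% fell, with 730 and 187 in the rest (median 0.41). The rises were mainly among Spermatogenic members, 59 of 115 with the how27 allele (median 0.82) and 50 of 115 with the tm5337 allele (median 0.71). Spermatogenic piRNAs of the rest had 384 and 313 of 635 risen, with medians of 1.00 and 0.86. The counts that follow are of members alone, without the share over all piRNAs in the same setting. The rises with tm5337 numbered 35 without pup-1 replicate 1, 21 without pup-1 replicate 2, 18 without pup-1; disl-2(tm5337) replicate 1 and 17 with no level filter. Those with how27 numbered 34 without pup-1 replicate 2 and 44 with no level filter.

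The largest of these rises was that of 21ur-742, with 186 and 255 RPM in pup-1; disl-2(how27) and levels of 171 and 118 RPM in the double mutant with tm5337, against 26.8 and 29.0 RPM in pup-1. Its log2 changes were 2.95 ± 0.30 (adjusted p = 5.32e-08) and 2.33 ± 0.30 (adjusted p = 2.51e-06), and no libraries overlapped. 21ur-6722 had 114 and 90.1 RPM with how27 and 75.2 and 55.8 RPM with tm5337, against 19 and 11.5 RPM in pup-1, changes of 2.74 ± 0.31 and 2.09 ± 0.31. 21ur-7162 rose by 2.55 and 2.04, with 2.93 and 2.61 RPM in pup-1. The deepest fall was that of the unclassed 21ur-6320 of cluster b, with 12.1 and 20.8 RPM with how27 and 47.4 and 41.4 RPM with tm5337, against 84.7 and 84.9 RPM in pup-1. Its changes were -2.38 ± 0.31 (adjusted p = 1.60e-06) and -0.93 ± 0.31 (adjusted p = 0.0247). 21ur-994, 21ur-1844, 21ur-3144 and 21ur-5390 fell with both disl-2 alleles.

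Without PARN-1 the members' median level was lower than in the other steady-state genotypes. The median member had 1.33 RPM in the parn-1; disl-2(tm5337) mutant and 0.766 RPM in parn-1, and the median of the rest 3.59 and 3.18 RPM, while over the controls members (12.4 RPM) and all 2680 piRNAs (13.9 RPM) had closer medians. Relative to control means that the rule used, these levels were 0.0879 and 0.0563 for members and 0.231 and 0.197 for the rest, which is a description. A group mean under 1 RPM was found for 73 members (38.6%) with both mutations and 113 (59.8%) in parn-1, while in the rest these shares were 13.6% and 19.8%. Relative to the controls, Spermatogenic members stood at 0.0871 in the double mutant and 0.0541 in parn-1, and the Spermatogenic rest at 0.226 and 0.131, so the Spermatogenic rest was below the whole rest in parn-1 and close to it in the double mutant. Each parn-1 library listed 3 members at 0 RPM, and 3 reads, the most a value of 0 allows, were worth 0.0568 to 0.341 RPM over the 42 libraries; floors of this kind cover counting error only.

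In parn-1; disl-2(tm5337) relative to parn-1, 45 members rose and 5 fell of the 100 that passed the level filter, with a median of 0.68. A member could pass through its level in either group alone. Group means under 1 RPM were found for 113 members in parn-1 and 73 in the double mutant, and passing through the double mutant alone favours rises. The filter kept 100 of 189 members and 2129 of 2491 of the rest, so the medians of both cover unlike parts of each. Over all 4039 piRNAs 24.5% rose and 10% fell, and of the rest 458 of 2129 rose and 262 fell (median 0.13). Spermatogenic members had 31 of 56 risen and 1 fallen (median 0.88), against 214 and 7 of 506 in the rest (median 0.64). Members of cluster a had 22 of 33 risen and 1 fallen (median 0.98), against 131 and 0 of 208 piRNAs of cluster a in the rest (median 0.89). Without parn-1 replicate 2 the rises came to 18 members, and without parn-1; disl-2(tm5337) replicate 1 to 29. With no level filter limma called 0 of 189 members, with 65 higher and 6 lower at an unadjusted p under 0.05, its prior holding 3.86 degrees of freedom in place of 1825, while limma voom with the filter called 46 higher. Shares over all piRNAs in these settings are not given. 21ur-3476 had 11 and 8.63 RPM in the double mutant, against 2.75 and 1.55 RPM in parn-1, a change of 1.99 ± 0.32 (adjusted p = 5.80e-08). 21ur-9319 had 17.9 and 15.3 RPM, against 5.87 and 6.23 RPM in parn-1, a change of 1.38 ± 0.30 (adjusted p = 8.41e-05). Both lay above parn-1 in each library and below every control library. 21ur-4934 had 20.3 and 15.4 RPM in the double mutant, against 33.4 and 27.9 RPM in parn-1, a change of -0.77 ± 0.24 (adjusted p = 0.00843).

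A further comparison, added after these levels were seen, set parn-1; disl-2(tm5337) against disl-2(tm5337). Of the 184 members that passed the level filter 161 fell and 6 rose, with a median of -2.30. A member could pass through its level in disl-2(tm5337) alone, which favours falls. Of all 189 members, 73 had a group mean under 1 RPM in the double mutant and 3 in disl-2(tm5337). In the rest these shares were 13.6% and 0.321%. Over all 5283 piRNAs 52.1% fell and 16.9% rose, and of the rest 1671 of 2482 fell and 199 rose (median -1.41). Rescaling, with a shift of -0.69, gave 143 members lower and 13 higher, beside 2004 and 1596 of all 5283 piRNAs. In Spermatogenic members the median was -2.30 (99 of 113 fallen) and in the Spermatogenic rest -1.53 (455 of 633). The deepest fall was that of 21ur-6320, with 0.319 and 0.284 RPM in the double mutant, against 57.3 and 46.3 RPM in disl-2(tm5337), a change of -6.02 ± 0.37 (adjusted p = 7.14e-58). 21ur-481 had 1.39 and 0.608 RPM, against 71.8 and 51.2 RPM in disl-2(tm5337), a change of -5.40 ± 0.35 (adjusted p = 1.21e-51). The smallness of these p-values rests on a spread pooled over all piRNAs, since each group had 2 libraries. 21ur-4572 had 48.2 and 42.5 RPM, against 526 and 443 RPM in disl-2(tm5337), a change of -3.40 ± 0.18.

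A few members were higher in parn-1; disl-2(tm5337) than in disl-2(tm5337). The Oogenic pair 21ur-3784 and 21ur-10972, which share reads, rose by 1.33 and 1.36 on the log2 scale. 21ur-3784 had 31.0 and 38.5 RPM in the double mutant, against 15.6 and 11.5 RPM in disl-2(tm5337), and its parn-1 level was 28.2 and 25.4 RPM. 21ur-8226, a Spermatogenic piRNA of cluster b, had 27.9 and 13.6 RPM in the double mutant, against 10.02 and 5.73 RPM in disl-2(tm5337), a change of 1.31 ± 0.33 (adjusted p = 0.000171). The libraries of 21ur-3784 and 21ur-8226 did not overlap between these genotypes. 21ur-12025 and 21ur-6579, another pair that shares reads, rose by 1.17 and 1.16. In parn-1 itself this pair averaged 3.24 and 3.09 RPM, not above the 3.54 and 3.51 RPM of disl-2(tm5337).

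Decay was followed after auxin depleted TOFU-5 in the gfp::aid::tofu-5(how48) strain, in 10 libraries that carry disl-2(how27) and 10 where disl-2 is intact. With disl-2(how27), the summed level of the members was 2471 ± 436 RPM at 0 h, 1997 ± 141 RPM at 2 h, 2002 ± 33.7 RPM at 4 h, 1337 ± 8.43 RPM at 6 h and 1218 ± 40.9 RPM at 12 h. With disl-2 intact it was 2827 ± 370, 2410 ± 442, 1710 ± 232, 1343 ± 249 and 949 ± 15.1 RPM at the same times (SD, n = 2 each). With disl-2(how27) the median member stood at 0.652 of its control mean at 0 h, against 0.447 in the rest, and at 0.287 at 12 h, against 0.226. With disl-2 intact these values were 0.703 and 0.555 at 0 h and 0.198 and 0.195 at 12 h. Among Spermatogenic piRNAs, members and rest lay closer at 0 h, at 0.748 and 0.732 with disl-2(how27) and 0.821 and 0.841 with disl-2 intact. At 12 h these Spermatogenic medians were 0.318 and 0.307 with disl-2(how27) and 0.201 and 0.225 with disl-2 intact.

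**Figure D5:**
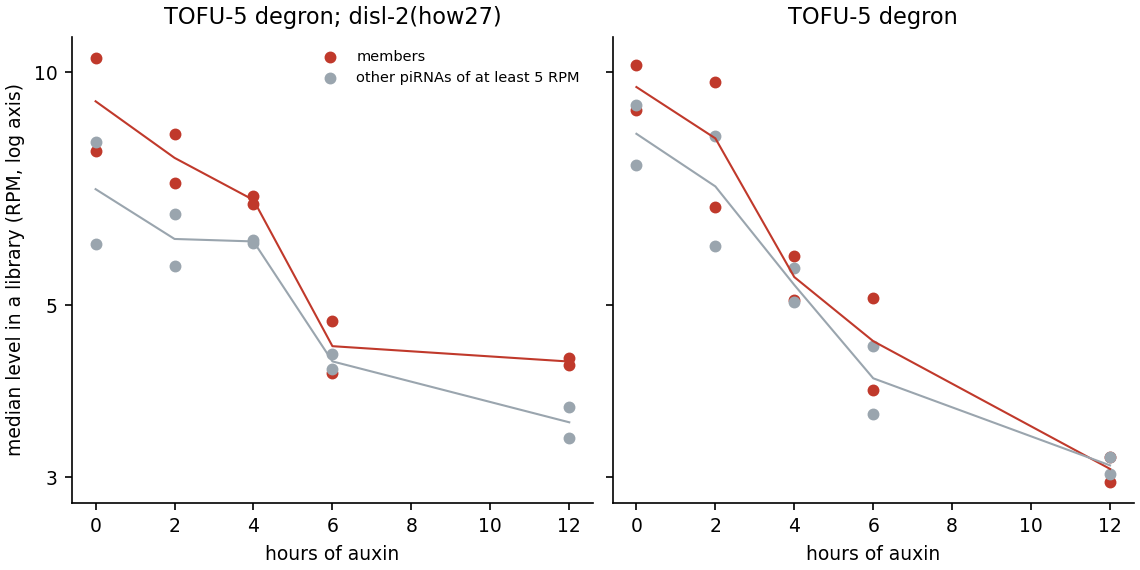
Median level of the members and of the rest in each library (points, RPM, log y axis) over 0, 2, 4, 6 and 12 h of auxin (x axis), with the gfp::aid::tofu-5(how48) strain carrying disl-2(how27) in the left panel and the one with disl-2 intact in the right panel, and lines through the mean of the 2 libraries. The median of the members' group means was 9.39 RPM at 0 h and 4.19 RPM at 12 h with disl-2(how27), and 9.77 and 3.17 RPM with disl-2 intact.

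Slopes of log2(RPM + 0.5) over time came from 1 limma fit of all 20 libraries. With disl-2(how27), 145 of the 188 members that passed the level filter fell, at a median slope of -0.083 per hour, which is a half-life of 12.1 h. Over all 4112 piRNAs 62.7% fell there, and the rest had 1673 of 2456 fallen and a half-life of 13.2 h at the median slope. With disl-2 intact 172 of 188 members fell, at a median slope of -0.128 per hour or a half-life of 7.83 h. In that strain 81.9% of all piRNAs fell, and the rest had 2117 fallen and a half-life of 8.93 h. Among Spermatogenic piRNAs the half-life at the median slope with disl-2(how27) was 12.1 h for members, against 10.8 h for the rest, and with disl-2 intact it was 6.76 h for members, against 6.83 h for the rest. Values were not rescaled between times, and rescaling to equal medians removes the decay that most piRNAs share, leaving 7 members falling and 1 rising in the disl-2(how27) strain, and 41 falling and 17 rising where disl-2 was intact. Of all 4112 piRNAs, 61 then fell and 99 rose in the disl-2(how27) strain, and 550 fell and 469 rose where disl-2 was intact.

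The test of the difference in slope between the strains called 0 members in limma, with 0% called over all piRNAs and 46 of 188 members at an unadjusted p under 0.05, beside 354 of 2456 in the rest and 520 of all 4112. The slope was shallower with disl-2(how27) for 160 of 188 members and for 2090 of 2456 in the rest, a like share, with median differences of 0.042 per hour in members and 0.036 in the rest. 21ur-3476 had 28.1 and 36.9 RPM at 0 h, 18.6 and 23.4 RPM at 6 h and 11.8 and 8.99 RPM at 12 h with disl-2(how27). With disl-2 intact it was among the fastest members, with 48.4 and 50.1 RPM at 0 h, 16.7 and 14.5 RPM at 6 h and 5.96 and 5.10 RPM at 12 h, a half-life of 3.99 h (adjusted p = 5.17e-09). Its level with disl-2(how27) was thus the lower one at 0 h and the higher one at 12 h, but the difference in slope of 0.122 per hour had an adjusted p of 0.130. 21ur-7923, a Spermatogenic piRNA of cluster b, had a half-life of 3.96 h with disl-2 intact. Slow decay was seen for 21ur-3607, with 31.2 and 37.2 RPM at 0 h and 21.8 and 20.2 RPM at 12 h with disl-2 intact, a half-life of 18.6 h (adjusted p = 0.0229), and after rescaling its slope was 0.066 per hour upwards.

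At 0 h, with disl-2(how27) relative to disl-2 intact, 1 member rose and 1 fell of 188 (limma), 24 were at an unadjusted p under 0.05, and the median was -0.07. Over all 4112 piRNAs 0.0973% rose and 1.56% fell, 615 were at an unadjusted p under 0.05, and the median of the rest was -0.28. Without any 1 of the 4 libraries of 0 h limma called 0 members, with 13 to 23 at an unadjusted p under 0.05, so both calls rest on every one of these libraries. The member that rose was 21ur-7241, a Spermatogenic piRNA inside a coding gene of cluster b, with 18.1 and 15.2 RPM in the strain with disl-2(how27), against 6.15 and 6.12 RPM with disl-2 intact, a change of 1.36 ± 0.24 (adjusted p = 0.00683). At 12 h it had 8.84 and 11 RPM with disl-2(how27), against 2.54 and 2.62 RPM. The member that fell was 21ur-6320, with 27.1 and 27.6 RPM with disl-2(how27), against 56.1 and 58.6 RPM with disl-2 intact, a change of -1.06 ± 0.21 (adjusted p = 0.0130).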

How the data were processed

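Per the labels' protocols, small RNAs of whole adults went through PIR-1, an RNA phosphatase, before adapters were ligated. Values in the deposited table are RPM, scaled by the authors to sequencing depth, per the labels. Trim Galore and Bowtie are named in the submitters' processing notes, without versions; the genome build is not given in the sources used here. Of 14681 entries, 1 piRNA was listed more than once and kept at its larger values. The commonest value above 0 in a library was taken as 1 read, which gave its depth, and 85.8% to 88.2% of values were then whole reads within 0.01 read. Other values were called divided reads.

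Members, lists and comparisons were chosen with earlier results of these data known. Classes are the authors'. Clusters and neighbours come from the gene order of the WBcel235 gene table, where all 14680 identifiers matched. Tests used limma 3.58.1 (R 4.3.3) on the log2 scale, as log2 of deposited RPM plus 0.5, with a trended prior variance. Changes on this scale understate those of low piRNAs. The henn-1; disl-2 and single disl-2 groups shared 1 fit, as did the pup-1 groups and the time course. Tables and plots used Python 3.11.15, pandas 2.3.3, numpy 2.4.6 and matplotlib 3.10.9. Fits were tested on simulated data. Alternatives were pseudocounts of 0.1 and 2, no filter, a filter at 5 RPM, equal medians, limma voom, a replicate block and leaving out each library.

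Named members are the 10 most abundant, the 10 of lowest ratio, those at the limits of the rule, and in each test the 5 largest rises and falls with libraries that do not overlap and a mean of at least 5 RPM. The text gives only a part of these members and of their tests. 10 further samples of the series were not analysed here, and sequences were not used here.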

Additional observations from a re-analysis of the deposited data

How the results depend on the processing

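The set itself held 116 piRNAs with a control mean of at least 10 RPM, 1619 after rescaling to equal medians, and between 161 and 282 without 1 library, the most without henn-1 replicate 1. In henn-1; disl-2(how18) against disl-2(how27) rescaling left 164 members lower, and leaving out 1 library gave 39 to 74, the fewest without henn-1; disl-2(how18) replicate 1. Against disl-2(tm5337) rescaling left 12 members higher. Members that rose in pup-1; disl-2(how27) numbered 44 without a filter and 34 to 65 without 1 library, and in pup-1; disl-2(tm5337) 17 and 18 to 68. In parn-1; disl-2(tm5337) against parn-1 no member rose without a filter (0), 11 rose at 5 RPM or more and 18 to 44 without 1 library. Against disl-2(tm5337), 89 fell at 5 RPM or more, where fewer members are tested. Decay was called for 96 members in the disl-2(how27) strain and 106 where disl-2 was intact at 5 RPM or more, and for 7 and 41 after rescaling. At 0 h, 2 members fell with a pseudocount of 2, 3 at 5 RPM or more, 3 with voom and 0 after rescaling, and without 1 library 0 to 1 rose and 0 to 3 fell. Of 1400 recomputed values of named members, 1258 kept their call, 132 lost it and 10 changed sign, all 10 decay slopes after rescaling: 21ur-1041 (0.036 per hour), 21ur-14188 (0.042), 21ur-3221 (0.032), 21ur-417 (0.041) and 21ur-5059 (0.041) with disl-2(how27), and 21ur-3352 (0.050), 21ur-3607 (0.066), 21ur-5230 (0.041), 21ur-5306 (0.050) and 21ur-5402 (0.042) with disl-2 intact (21ur-14188 and 21ur-417 share reads). Apart from rescaling, which removes shared change by construction, and the stricter filter, which tests fewer members, the cause was not tested. Member counts in this section stand without the share over all piRNAs in the same setting, so they do not set members apart from other piRNAs. Replicate numbers were not treated as pairs in the main fits, and whether they pair the samples is not settled. The difference between replicates correlated between groups at -0.441 to 0.448, with 11 of 45 pairs of time-course groups over 0.1. With a replicate block 71 members fell in henn-1; disl-2(how18) against disl-2(how27), and no count of members moved by over 1.5 times.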
